A study of Mus musculus with 8 samples.

Results

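Tfap4 encodes AP4, a transcription factor of the basic helix-loop-helix leucine zipper class, and was followed here as a single gene. Its members were the probe sets whose only annotated gene symbol is Tfap4. The rule gave 1 probe set, 1418167_at, of the 45056 on the array. The gene lies on chromosome 16 in the RefSeq gene table of mouse assembly GRCm38.p6. Because a single probe set reports it, no second probe set for Tfap4 was available to check its values against.

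The study asked how the germinal centre (GC) B cells that express MYC differ from those that do not. GC B cells are antigen-activated B cells that divide, mutate their antibody genes and are selected in lymphoid follicles. MYC-positive and MYC-negative GC B cells, 4 samples of each, were sorted by GFP from spleens of mice labelled GFPMYC/C57BL6, in which GFP reports the MYC protein. All mice were 8 weeks old, all carried the GFP and MYC fusion, and all had received sheep red blood cells 12 days before. Both fractions came from bead-enriched B cells gated for strong binding of peanut agglutinin (PNA) and high CD95, the Fas receptor, so they shared every condition except GFP. Each sample description names its partner in the other fraction, which gives 4 pairs. The protocol describes a sort of every mouse and the design text mentions pools, so it is not settled whether a pair is 1 animal. RNA of 5 to 20 ng was amplified before hybridisation to Affymetrix arrays.

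AP4 binds the E-box CAGCTG as a homodimer and is not known to pair with MAX. Its gene is a direct target of MYC, and AP4 is known in activated lymphocytes for keeping up a programme that MYC starts after MYC itself has declined. In spite of its name it is unrelated to the AP-2 factors. In human colon cancer cells AP4 represses CDKN1A, the gene of the cell cycle inhibitor p21, and the microRNAs of the miR-15/16 group have been reported to target AP4 itself.

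The sequences that the results below refer to are shown first. The promoter windows run from 250 bases before to 50 bases after the annotated start, are RefSeq sequence of GRCm38.p6, and are printed on the strand of the gene. Dleu2, the noncoding host gene of the mouse cluster of miR-15a and a copy of miR-16, is shown because it was lower where Tfap4 was higher. Its window is chr14:61682324-61682623 on the minus strand, with the E-box CACGTG that MYC and MAX bind in capitals, 178 bases before the start. Dnph1, a nucleotide hydrolase gene known as a MYC target, is shown because its paired differences were among the nearest to those of Tfap4. Its window is chr17:46496539-46496838 on the plus strand, with CACGTG in capitals, 17 bases before the start. The mature microRNAs are shown with bases 2 to 8, the seed that pairs with targets, in capitals. They lie on the minus strand at chr14:61632075-61632096 for miR-15a and chr14:61631936-61631957 for miR-16. Both share the seed, and neither was itself measured by the arrays.
Dleu2 promoter: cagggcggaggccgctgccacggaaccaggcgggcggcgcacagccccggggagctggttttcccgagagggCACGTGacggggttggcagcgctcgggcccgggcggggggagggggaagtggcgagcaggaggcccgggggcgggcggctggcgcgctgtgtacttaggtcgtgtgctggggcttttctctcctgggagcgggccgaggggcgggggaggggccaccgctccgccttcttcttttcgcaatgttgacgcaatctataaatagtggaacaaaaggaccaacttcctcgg
Dnph1 promoter: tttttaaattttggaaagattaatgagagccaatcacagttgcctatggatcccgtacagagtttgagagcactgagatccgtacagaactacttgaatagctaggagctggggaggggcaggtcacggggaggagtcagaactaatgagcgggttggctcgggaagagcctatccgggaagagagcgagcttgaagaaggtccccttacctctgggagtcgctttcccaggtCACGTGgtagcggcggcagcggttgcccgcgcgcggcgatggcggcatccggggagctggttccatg
mmu-miR-15a-5p: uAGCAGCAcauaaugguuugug
mmu-miR-16-5p: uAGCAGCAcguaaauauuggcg

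A few facts of the arrays bear on all values. Signals are linear array intensities, and the trimmed mean of the arrays ran from 497 to 498, so arrays had been brought to a common scale. Correlations between arrays lay between 0.88 and 0.98. The MYC-positive array of pair 4 stood apart, with a score of 90.0 on the first principal component (42.5% of the variance), against 24.5 to 31.1 for the other MYC-positive arrays and -53.7 to -26.4 for the MYC-negative arrays. Myc, which checks the labels because the cells were sorted on the MYC fusion, was higher in the MYC-positive array of every pair. Of 11754 genes tested, 1319 (11.2%) were called higher and 1352 (11.5%) lower in MYC-positive cells, 22.7% together, at an adjusted p under 0.05 in limma with the pair as a block. The median difference over these genes was -0.06 on the log2 scale. Centring each array on its median moved that median up by 0.44 and the share of higher calls to 85.4% of all calls, against 49.4% as deposited.

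Tfap4 rose in MYC-positive GC B cells. Its signal was 828, 1167, 1449 and 2069 on the MYC-positive arrays of pairs 1 to 4, against 130, 173, 326 and 221 on their MYC-negative partners. Every MYC-positive array lay above every MYC-negative one, and the lowest MYC-positive signal was 2.54 times the highest MYC-negative signal. The mean signal was 1379 ± 526 in MYC-positive cells and 212 ± 84.2 in MYC-negative cells (SD, n = 4 each). Within a fraction the spread was of similar size, since the highest array was 2.50 times the lowest in MYC-positive cells and 2.51 times in MYC-negative cells.

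The paired log2 differences of Tfap4, MYC-positive minus MYC-negative, were 2.67, 2.75, 2.15 and 3.23 for pairs 1 to 4, which are folds of 6.37, 6.75, 4.45 and 9.38. All 4 pairs had the same sign, and pair 3, with the highest MYC-negative signal, had the smallest difference. The fitted difference was 2.70 with a standard error of 0.24 and a 95% interval of 2.15 to 3.25, a fold of 6.51 (4.45 to 9.51), and the adjusted p was 0.00053 in limma. An exact two-sided sign-flip test over the 4 pairs gave p = 0.125, the smallest that 4 pairs allow. An exact permutation test of the 8 arrays without regard to pairs gave p = 0.029, again the smallest possible. Without pair 4, whose MYC-positive array stood apart, the difference was 2.53 (adjusted p = 2.6e-06 in limma). The p-values speak for separate animals only if each pair is one, and otherwise for the spread of these preparations. In sorted bulk cells more cells with Tfap4 RNA and more of that RNA per cell cannot be told apart.

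Markers of macrophages and other myeloid cells moved with the fractions beside Tfap4. Of 18 on the list 15 were tested, and 11 rose (73.3%, against 11.2% of all genes) and 0 fell (against 11.5%). Also at an unadjusted p under 0.05 in limma 0 were lower. The 4 not called were Fcgr1 (1.41), Adgre1 (0.63), Cd68 (0.51) and S100a8 (0.08). The median difference of the 15 was 3.40, led by Csf1r (6.40), Vcam1 (5.98), Slc40a1 (5.83), C1qc (5.10) and C1qa (5.07). The MYC-negative means of these 5 genes lay under the filter level of 18.7, so the sizes depend on the floor for dim signals. Over the alternatives they ran down to 3.84 for Csf1r, 3.89 for Vcam1, 4.53 for Slc40a1, 2.76 for C1qc and 3.32 for C1qa. Each stayed called in the alternatives that tested it. The sizes also depend on the probe set, since other kept probe sets differed by 3.74 and 1.38 for Csf1r and by 1.79 for Vcam1. The Csf1r groups overlapped, although it was higher in the MYC-positive array of all 4 pairs. The summed signal of the list was 11277, 5105, 1753 and 3754 on the MYC-positive arrays of pairs 1 to 4 and 1040, 596, 604 and 429 on the MYC-negative arrays. On the same MYC-positive arrays of pairs 1 to 4 the Tfap4 signal was 828, 1167, 1449 and 2069. The part of myeloid RNA in the Tfap4 difference was not tested.

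Myc and Tfap4 differed between the fractions by like amounts. Myc gave 361, 932, 644 and 891 on the MYC-positive arrays of pairs 1 to 4 and 33.3, 156, 105 and 137 on the MYC-negative arrays, with no overlap. Its paired differences were 3.44, 2.58, 2.62 and 2.71, and its fitted difference was 2.83 (SE 0.28, adjusted p = 0.00069 in limma). This level is a check of the sort and not a result. The Tfap4 difference minus the Myc difference was -0.77, 0.18, -0.46 and 0.52 in pairs 1 to 4, so Tfap4 had the larger difference in pairs 2 and 4 and Myc in pairs 1 and 3. The mean of these values was -0.13 ± 0.59 (SD, n = 4), and an exact two-sided sign-flip test gave p = 0.75, which does not show that the 2 differences are equal.

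**Figure D1:**
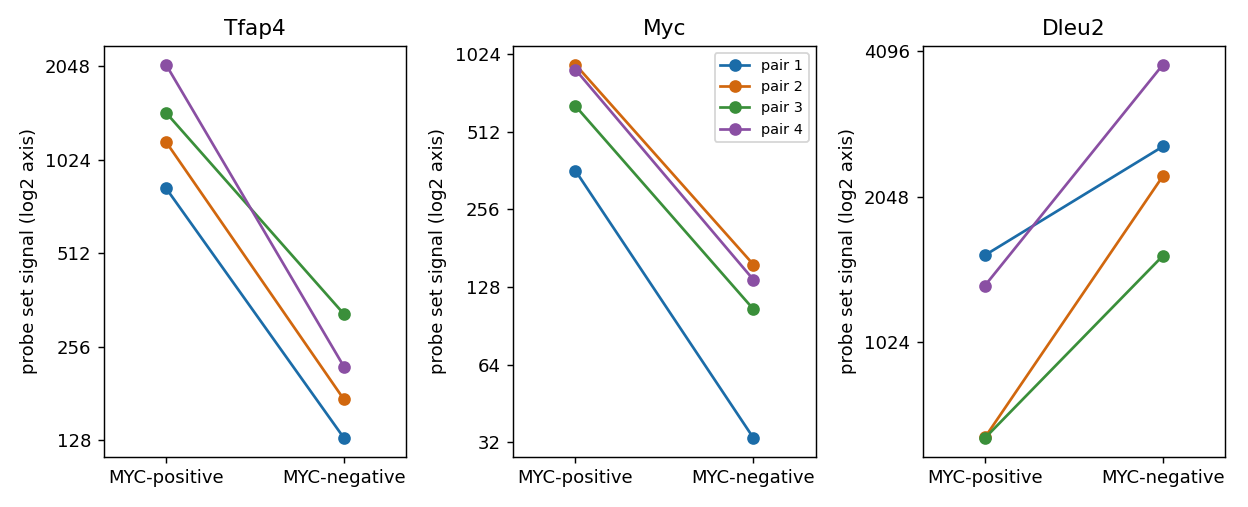
Signal of Tfap4, Myc and Dleu2 on each array, on a log2 axis, with MYC-positive arrays left and MYC-negative arrays right and a line joining the arrays of a pair. Tfap4 and Myc are higher on all 4 MYC-positive arrays, with Tfap4 at 828 to 2069 on MYC-positive against 130 to 326 on MYC-negative arrays, and Dleu2 is lower on the MYC-positive array of each pair.

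Among all genes tested Tfap4 ranked 51 of 11754 by difference, within the top 0.434%, and 24 by moderated t. By its smallest paired difference it ranked 36. Within pairs 1 to 4 taken one at a time it ranked 163, 95, 108 and 101. Its spread was not small. The SD of its log2 signal was 0.55 in MYC-positive and 0.56 in MYC-negative cells, against medians over all genes of 0.44 in MYC-positive and 0.35 in MYC-negative cells. A larger SD was found for 35.7% of genes in MYC-positive cells and for 22.1% in MYC-negative cells. The SD of its paired differences, 0.44, lay below the median over genes, 0.49.

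The genes above Tfap4 by difference were mostly dim in MYC-negative cells. Of these 50 genes, 48 were called, 46 had a mean MYC-negative signal under 100, and 31 were under 18.7, the level at which dim probe sets were filtered. Of the 50, 9 belong to the myeloid list. Among the 8703 genes with a MYC-negative signal of at least 100, a limit chosen after the data were seen, Tfap4 ranked 5. The 4 genes above it there were Ccnd2, Lyz1, Srm and Batf. Ccnd2, the cyclin D2 gene, differed by 4.02 (4216 in MYC-positive and 259 in MYC-negative cells) and had the largest moderated t of all genes. Lyz1, a lysozyme gene very similar to the myeloid Lyz2, differed by 3.48 (2215 in MYC-positive and 199 in MYC-negative cells). Near-identical genes can share probes. Srm, the spermidine synthase gene, differed by 3.26 (2874 in MYC-positive and 300 in MYC-negative cells). Batf, an AP-1 family factor needed for class switching, differed by 2.97 (1281 in MYC-positive and 164 in MYC-negative cells).

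**Figure D2:**
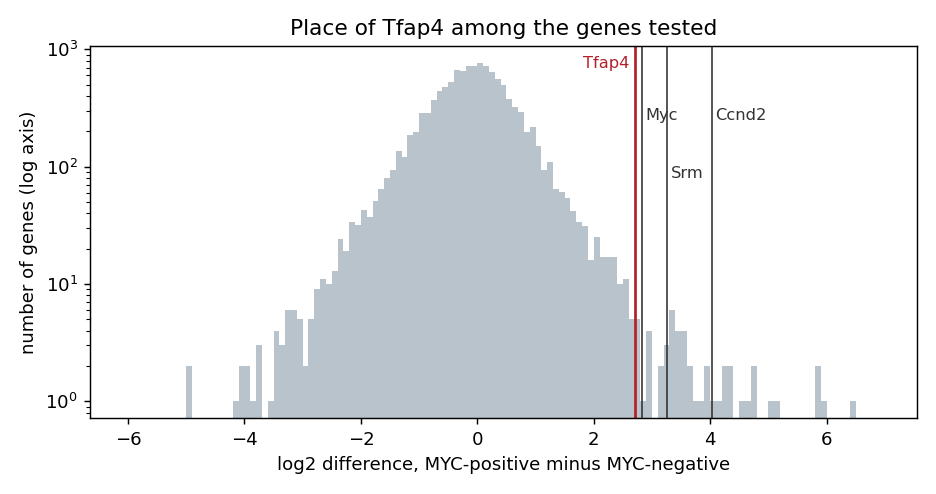
Number of genes (log axis) by log2 difference, MYC-positive minus MYC-negative, over the 11754 genes tested, with vertical lines at Tfap4, Myc, Srm and Ccnd2. Tfap4 lies at 2.70 in the upper tail, below Myc at 2.83, Srm at 3.26 and Ccnd2 at 4.02.

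The immediate neighbours of Tfap4 in this order had similar means and unlike spreads. Wfdc17 (2.76), Ednrb (2.72) and Dnph1 (2.71) stood just above it, and the chemokine gene Ccl9 (2.66), the deoxycytidylate deaminase gene Dctd (2.63) and Epop (2.63), whose protein binds a Polycomb complex, just below. Standard errors were 0.46, 0.65 and 0.32 for Wfdc17, Ednrb and Dnph1 and 0.76, 0.36 and 0.41 for Ccl9, Dctd and Epop, all larger than the 0.24 of Tfap4. Ednrb, the endothelin receptor B gene, differed by 4.65 in pair 1 and 0.32 in pair 4, and Ccl9 by 5.03 in pair 3 and -0.41 in pair 4. Without pair 3 the Ccl9 difference was 1.86 and was not called, and the calls of Ednrb and Ccl9 were lost without pair 1 and without pair 2.

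Likeness to Tfap4 was measured as Pearson's r over the log2 signals of the 8 arrays. The arrays share the split into 2 fractions, so a gene that differs between the fractions tends to have an r far from 0. Exceptions exist, such as Ccl9 (r = 0.38), and r is given as a description. Of the other 11753 genes, 372 had an r above 0.9, 121 above 0.95, and 67 below -0.95. The most alike was Morrbid (0.99), a long noncoding RNA known for restraining the cell death gene Bcl2l11 in myeloid cells. It was followed by Nudt19 (0.99), a coenzyme A hydrolase gene, Wdr77 (0.98), which encodes a partner of the arginine methyltransferase PRMT5, and Ndufa12 (0.98), a subunit of respiratory complex I. Then came Uck2, the uridine-cytidine kinase of pyrimidine salvage, Cdc23, a subunit of the anaphase-promoting complex, the noncoding RNA Dancr, Zmynd19, the scaffold gene Bsn and Oosp1, all at 0.98.

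The differences of these 10 genes ranged widely, at 2.57 for Morrbid, 0.91 for Nudt19, 1.52 for Wdr77, 0.65 for Ndufa12, 2.36 for Uck2, 0.50 for Cdc23, 2.36 for Dancr, 2.00 for Zmynd19, 3.59 for Bsn and 1.92 for Oosp1. All but Cdc23 (adjusted p = 0.055) were called higher in limma, and Cdc23 was called after quantile normalization, after median centring, with only signals above 100 and without pair 4. Morrbid had signals of 620, 656, 901 and 1014 on the MYC-positive arrays of pairs 1 to 4, against 106, 107, 172 and 152 on the MYC-negative arrays. It ordered the 8 arrays exactly as Tfap4 did, with a Spearman rho of 1, against 0.90 to 0.98 for the other 9 genes. After the fraction means were removed its r was 0.94, and 32 of the other 11753 genes had such an r above 0.9. Morrbid was picked for its r over these same arrays, so neither value is a separate check. A second Morrbid probe set did not follow (difference -0.20), and 1 of 3 other probe sets of Ndufa12 and 1 of 2 of Cdc23 went the other way (-3.17 and -0.27). The calls of Nudt19 and Ndufa12 were lost without pair 1 and without pair 2, and that of Oosp1 without pair 2.

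Measured by the distance between the 4 paired differences, the nearest genes were Mfsd2a (0.29), a transporter of lysophospholipids, Dnph1 (0.34), Epop (0.56), Morrbid (0.58) and Pecr (0.64), a peroxisomal enoyl-CoA reductase gene. Mfsd2a differed by 2.78, 2.59, 2.03 and 3.05 in pairs 1 to 4. Dnph1 differed by 2.81, 2.70, 1.90 and 3.41. As for Tfap4, pair 3 had the smallest and pair 4 the largest difference of both genes.

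At the opposite end stood Brox (r = -0.99), Myom1 (-0.98), Pde2a (-0.98), Gtpbp2 (-0.98) and Pcmtd1 (-0.98), all called lower in MYC-positive cells. Pde2a, a phosphodiesterase of cyclic AMP and cyclic GMP, had the largest difference of them at -2.37 (442 in MYC-positive and 2289 in MYC-negative cells, adjusted p = 0.00046 in limma). Gtpbp2, a GTP-binding protein gene of ribosome rescue, differed by -1.11, Myom1, a sarcomere gene, by -1.48, Pcmtd1 by -0.96 and Brox by -0.70. The calls of Brox and Myom1 were lost without pair 1 and without pair 2, and those of Brox and Pcmtd1 after median centring.

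**Figure D3:**
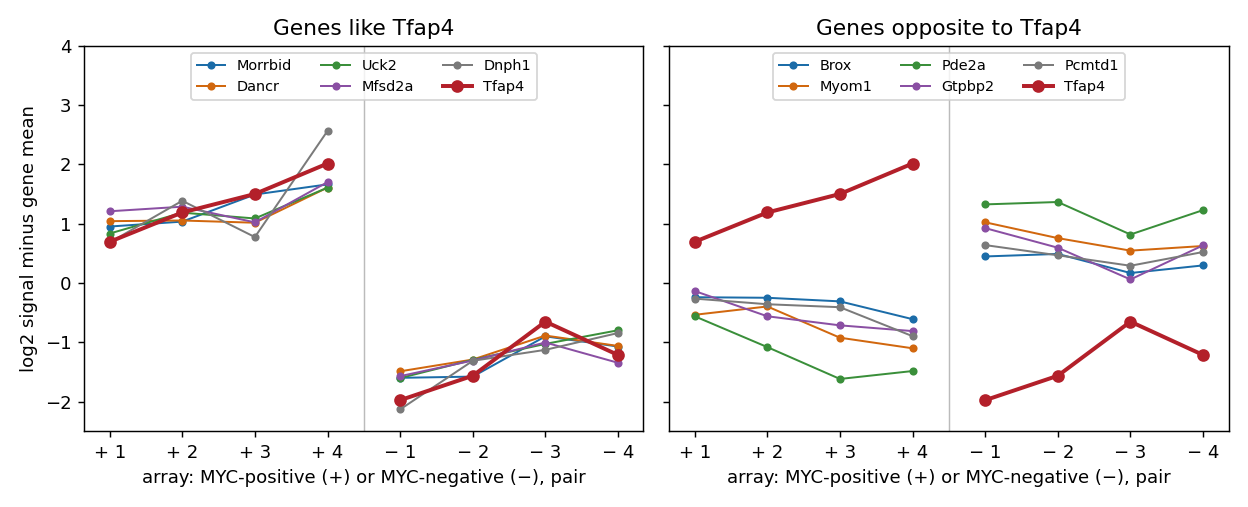
Log2 signal minus the mean of each gene, for MYC-positive arrays (+) left and MYC-negative arrays (−) right, numbered by pair, with lines that only link the arrays of a fraction. Morrbid, Dancr, Uck2, Mfsd2a and Dnph1 (left panel) lie on the same side of 0 as Tfap4 on every array, and Brox, Myom1, Pde2a, Gtpbp2 and Pcmtd1 (right panel) lie on the other side.

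Basic helix-loop-helix factors and their Id inhibitors dimerise with one another and compete for E-boxes, so the family was set beside Tfap4. Of 44 family genes on the array 35 were bright enough to test. Of these, 4 rose (11.4%, against 11.2% of all genes), 3 fell (8.57%, against 11.5%) and 28 were not called. The 4 that rose were Tfap4 itself, Myc, on whose fusion the cells were sorted, Ahr and Id2. The share of 11.4% thus includes the gene in focus and the gene of the sort, and only Ahr and Id2 rose beside them. At an unadjusted p under 0.05 the counts were 5 and 7. The median difference of the family was -0.18, against -0.06 for all genes. After median centring it was 0.26, against 0.38 for all genes. Myc and Tfap4 led the family by a wide margin, and the next gene was Ahr.

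Ahr, the ligand-activated aryl hydrocarbon receptor, gave 545, 568, 558 and 291 on the MYC-positive arrays of pairs 1 to 4, against 180, 205, 159 and 157 on the MYC-negative arrays. The groups did not overlap, and the MYC-positive array of pair 4 was low among its group. The difference was 1.44 (SE 0.27, adjusted p = 0.0070 in limma). Id2, which lacks a DNA-binding region and sequesters E proteins, gave 1167, 1228, 1690 and 1873 on the MYC-positive arrays and 765, 509, 902 and 948 on the MYC-negative arrays, a difference of 0.94 (SE 0.19, adjusted p = 0.0089 in limma). The call of Ahr was lost without pair 1 (adjusted p = 0.056) and without pair 2 (0.055), and that of Id2 without pair 2 (0.078).

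The 3 genes that fell, a share no larger than that of all genes, belong to the MAX and MLX network around MYC. Mxd4, whose protein pairs with MAX and represses at E-boxes, gave 218, 211, 51.6 and 240 on the MYC-positive arrays of pairs 1 to 4, against 1182, 1298, 942 and 538 on the MYC-negative arrays. The groups did not overlap, and the difference was -2.60 (SE 0.42, adjusted p = 0.0042 in limma), close in size and opposite in sign to that of Tfap4. The other 3 Mxd4 probe sets differed by -1.62, -1.35 and -2.20. Mxd1, a second repressor of this kind, differed by -1.08 (167 in MYC-positive and 352 in MYC-negative cells, adjusted p = 0.022), and Mlxip, the glucose-sensing partner of MLX, by -0.88 (1154 in MYC-positive and 2124 in MYC-negative cells, adjusted p = 0.0075 in limma). Median centring ended the calls of both (adjusted p = 0.098 for each), Mxd1 was also lost without the pair block (0.067) and without pair 1, 2 or 3, and Mlxip without pair 1.

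Other members of the network were not called. Max, the shared partner of MYC and the MXD repressors, differed by 0.13 (4471 in MYC-positive and 4075 in MYC-negative cells), Mlx by 0.24, Mxi1 by -0.32, Mxd3 by -0.29, Mga by -0.39 and Mnt by -0.63 (adjusted p = 0.080). The E protein genes that direct B cell identity, Tcf3 (-0.25), Tcf4 (-0.05) and Tcf12 (-0.18), were not called, nor was their inhibitor Id3 (-0.66, adjusted p = 0.11). Dimmer kept probe sets of Tcf12 differed by -2.24, -1.51, -0.56 and 0.01, so its small difference rests on the brightest one. Tcf12 was not called under any alternative. The MYC paralogs Mycn and Mycl were among the 9 family genes too dim to test. Leaving out pair 4 brought lower calls of Mnt (-0.85), Id3 (-0.95) and Tcf3 (-0.55), and median centring brought higher calls of Max (0.57, adjusted p = 0.039) and Mlx (0.68, adjusted p = 0.040 in limma).

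**Figure D4:**
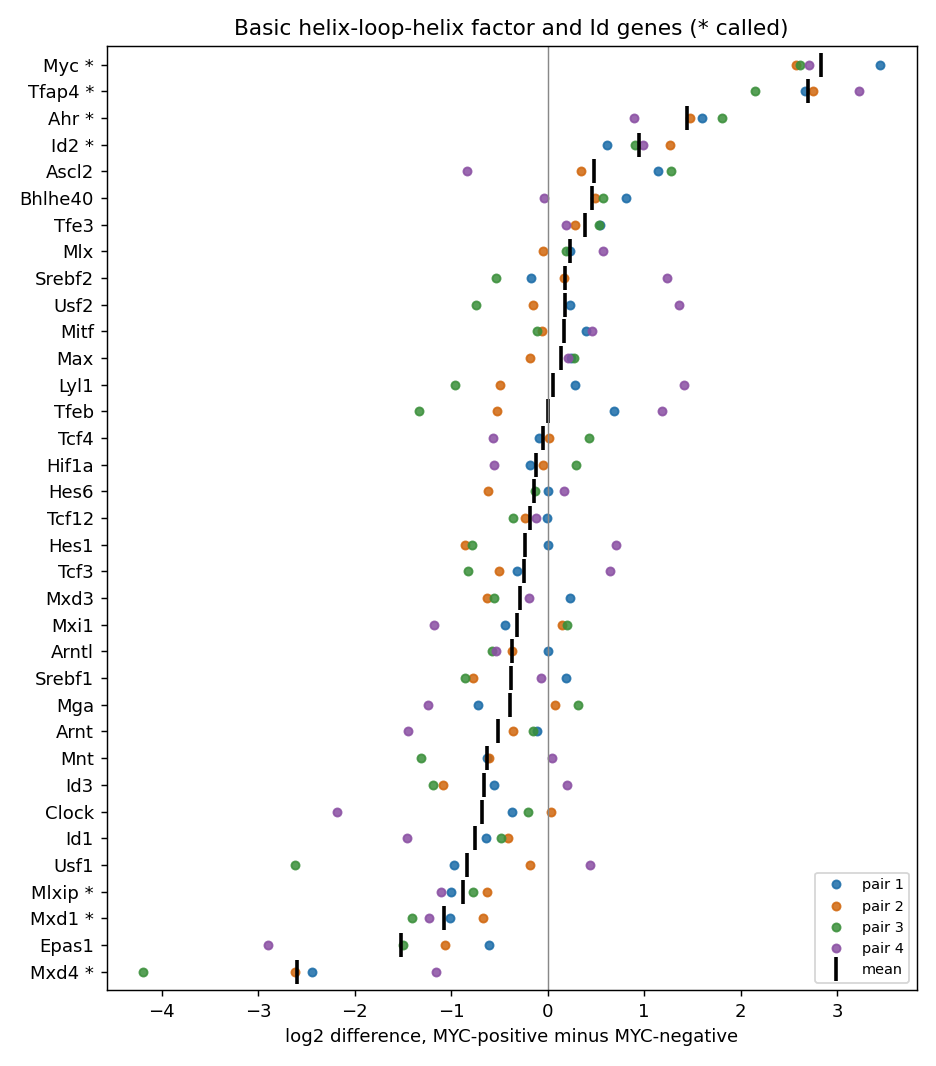
Paired log2 differences (MYC-positive minus MYC-negative) of the 35 helix-loop-helix and Id genes tested, sorted by their mean (black bar), with the pairs as coloured points and an asterisk at called genes. Myc and Tfap4 stand at the top with all pairs above 2, and Mxd4 stands at the bottom with a mean of -2.60.

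Genes known to act on Tfap4 or its product were next. Of 11 on this list 10 were tested, with a median difference of 0.00. Myc and Il2rb rose, 2 genes (20%, against 11.2% of all genes). The cells were sorted on the MYC fusion, so the rise of Myc is no result about this list. Il2rb was the only other gene that rose. Dleu2 fell, 1 gene (10%, against 11.5% of all genes). Beside Myc the list holds receptor chains of interleukin 2, which sustains AP4 in mouse T cells, and of interleukin 21, which does so in mouse GC B cells, their kinases and STAT3, Dleu2, and the ubiquitin ligase subunits that mark human AP4 for degradation. Il2rb, the receptor chain shared by interleukins 2 and 15, gave 115, 176, 76.9 and 66.6 on the MYC-positive arrays of pairs 1 to 4 and 45.1, 31.0, 40.6 and 35.8 on the MYC-negative arrays, a difference of 1.42 (adjusted p = 0.039 in limma). Its call was lost without pair 1, 2 or 3 (adjusted p = 0.14, 0.21 and 0.054) and with no filter on dim probe sets (0.076).

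Dleu2 gave 1550, 653, 651 and 1342 on the MYC-positive arrays of pairs 1 to 4, against 2599, 2258, 1546 and 3833 on the MYC-negative arrays. It was lower in the MYC-positive array of every pair, although the groups touched, since the MYC-positive array of pair 1 lay just above the MYC-negative array of pair 3. The difference was -1.32 (SE 0.20, adjusted p = 0.0032 in limma), and the other 2 Dleu2 probe sets differed by -1.78 and -1.31. The arrays report the host transcript, and the level of the microRNAs cut from it, printed above, is not known from it.

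The remaining genes of this list were not called. Il21r, the receptor chain of the T cell cytokine interleukin 21, differed by 0.37 (982 in MYC-positive and 761 in MYC-negative cells, adjusted p = 0.30), Il2ra by 0.62, Jak1 by -0.39, Jak3 by -0.06 and Stat3 by -0.21 (adjusted p = 0.56). Averaging probe sets by gene brought lower calls of Stat3 (-0.88, adjusted p = 0.030), which has a further probe set at -2.67, and of Jak1 (-0.71, adjusted p = 0.023 in limma). Jak1 was also called lower without pair 4 (-0.53, adjusted p = 0.018), and median centring brought a higher call of Il21r (0.81, adjusted p = 0.025 in limma). Of the ligase genes, Btrc differed by -1.06 (68.3 in MYC-positive and 143 in MYC-negative cells, adjusted p = 0.074) and Fbxw11 by 0.06 (7647 in MYC-positive and 7345 in MYC-negative cells), with 2 dimmer Fbxw11 probe sets at -1.26 and -2.41.

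The proteins reported to work with AP4 as corepressors in human cells showed small differences. Gmnn, the replication licensing inhibitor geminin, differed by 0.41 (6671 in MYC-positive and 5017 in MYC-negative cells, adjusted p = 0.055), and its groups did not overlap. Such separation upward was found for 11.1% of all genes. Hdac1 differed by 0.17 and Hdac3 by 0.06, so 0 of 3 were called in limma, with 1 (Gmnn) at an unadjusted p under 0.05. Gmnn passed after median centring (0.85), with only signals above 100, and with probe sets averaged by gene, and Hdac1 passed after median centring (0.61, adjusted p = 0.032 in limma).

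Of 6 genes reported as targets of AP4 in human tumour cells 5 were tested. In limma 2 fell, Vim and Lgr5 (40%, against 11.5% of all genes), and 0 rose (against 11.2%). Also at an unadjusted p under 0.05 in limma 0 were higher. The median of the 5 was -1.09. The list mixes genes that AP4 raises in human cells, such as that of vimentin, with genes it represses, such as CDKN1A. The pooled share and median therefore have no single direction to be read against. Vim, the vimentin gene that AP4 raises in human colon cancer cells, was lower here, at 3818, 2448, 1472 and 3263 on the MYC-positive arrays of pairs 1 to 4 and 6703, 7574, 5616 and 6614 on the MYC-negative arrays (difference -1.35, adjusted p = 0.0028 in limma). Lgr5 gave 1.48, 6.79, 29.3 and 4.13 on the MYC-positive arrays, mostly under the filter level of 18.7, against 239, 256, 158 and 131 on the MYC-negative arrays (difference -5.00, adjusted p = 0.0025 in limma). The size of this difference depends on the floor for dim signals. Both genes thus differed in a direction opposite to that of Tfap4.

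Cdkn1a, the p21 gene, was not called. It gave 214, 207, 95.2 and 181 on the MYC-positive arrays of pairs 1 to 4 and 99.1, 122, 135 and 168 on the MYC-negative arrays, and pair 3 ran against the others. The difference was 0.37 (SE 0.36, adjusted p = 0.50 in limma). Cdh1, the E-cadherin gene, differed by -1.09 (adjusted p = 0.39), with pairs between -3.95 and 1.40, and Cd44 by -0.02. The 2 promoter windows of Cdkn1a differ in the AP4 site. The window chr17:29090729-29091028, on the plus strand, holds CAGCTG 37 bases after the annotated start, in capitals here.
Cdkn1a promoter: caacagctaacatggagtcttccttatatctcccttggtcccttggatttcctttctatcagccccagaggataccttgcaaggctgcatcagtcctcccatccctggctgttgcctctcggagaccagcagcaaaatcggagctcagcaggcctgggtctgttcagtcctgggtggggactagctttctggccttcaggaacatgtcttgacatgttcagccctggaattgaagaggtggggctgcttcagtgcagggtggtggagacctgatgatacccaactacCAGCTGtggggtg

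**Figure D5:**
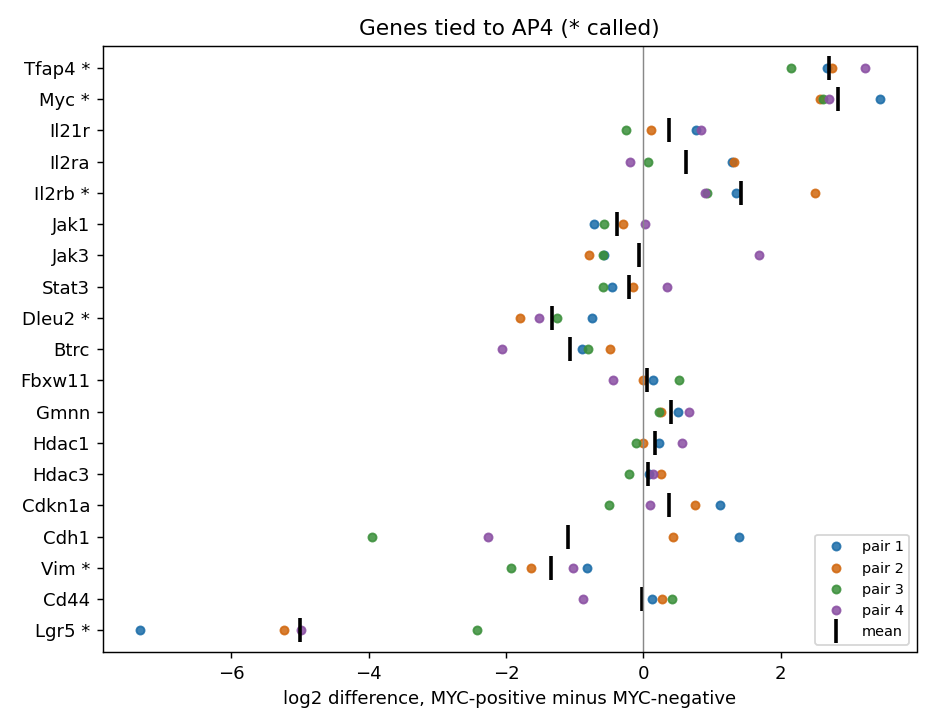
Paired log2 differences (MYC-positive minus MYC-negative) of Tfap4, its regulators, its corepressor partners and the genes reported as AP4 targets in human cells, top to bottom, with the mean as a black bar and an asterisk at called genes. Tfap4 and Myc lie well above 0 in all pairs, Dleu2, Vim and Lgr5 lie below 0 in all pairs, and most other genes straddle 0.

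The letters of both E-boxes were counted in the RefSeq promoter windows. CACGTG and CAGCTG are distinct hexamers, each of which reads the same on both strands, and both strands were searched. CACGTG was found in 7.15% of the 32851 windows and CAGCTG in 16.3%. By gene, CACGTG was found for 17.4% of the 1075 higher genes with a window, 9.55% of the 1078 lower genes and 11.2% of the 7391 genes not called. CAGCTG was found for 12.7% of higher genes, 24.2% of lower genes and 17.4% of genes not called. The median GC content of the windows was 59.8% for higher, 61.3% for lower and 60.5% for genes not called. These shares describe letters and say nothing of binding.

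Tfap4 was also placed among B cell transcription factors. Of 49 tested 6 rose (12.2%, against 11.2% of all genes), 12 fell (24.5%, against 11.5%) and 31 were not called. Their median difference was 0.00, against -0.06 for all genes. Only Batf exceeded Tfap4, with signals of 933, 1946, 707 and 2098 on the MYC-positive arrays of pairs 1 to 4 and 237, 165, 132 and 140 on the MYC-negative arrays. The others that rose were Nr4a3 (2.01), Irf4 (1.57), Runx3 (1.40), Jun (1.11) and Nfkb2 (1.04). Irf4, a driver of plasma cell fate and of activated GC B cells, had 9187 in MYC-positive and 3099 in MYC-negative cells. Those that fell most were Mybl1 (-2.12), Bach2 (-2.02), Fos (-1.82), Pax5 (-1.75) and Klf2 (-1.59). Bach2, a repressor of plasma cell fate, gave 2857, 3410, 2820 and 1149 on the MYC-positive arrays of pairs 1 to 4, against 9242, 10246, 10863 and 8396 on the MYC-negative arrays, with no overlap. The calls of Runx3, Fos and Pax5 were lost without pair 1 and without pair 2, that of Nr4a3 without pair 2, and those of Jun and Klf2 without pair 1, 2 or 3.

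Known MYC targets changed mostly with Tfap4. Of 45 tested 36 rose (80%, against 11.2% of all genes), 1 fell (2.22%, against 11.5%) and 8 were not called. Their median difference was 1.11, against -0.06 for all genes. Tfap4 exceeded all of them but Ccnd2 and Srm. Shmt1 of one-carbon metabolism (2.50), Polr1b, a subunit of RNA polymerase I (2.31), and Gnl3, the nucleolar protein nucleostemin (2.18), followed. The gene that fell was Prps2 (-0.99), a phosphoribosyl pyrophosphate synthetase gene, whose call was lost without pair 1, without pair 2 and after median centring.

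The genes beside Tfap4 on chromosome 16 had smaller differences. Of the 5 annotated genes on either side 7 were tested, and 1 rose and 1 fell. Over all genes 11.2% rose and 11.5% fell. Srl, the sarcoplasmic reticulum gene next to it, differed by 0.76 (184 in MYC-positive and 108 in MYC-negative cells, adjusted p = 0.12). It was higher in all 4 pairs with no overlap, and it was called higher after quantile normalization (1.18, adjusted p = 0.018) and median centring (1.20, adjusted p = 0.016 in limma). The noncoding D330022H12Rik on the other side differed by 0.27 (adjusted p = 0.68). Pam16, a subunit of the mitochondrial import motor, was higher (difference 0.74, 4236 in MYC-positive and 2534 in MYC-negative cells, adjusted p = 0.022 in limma). Coro7, a Golgi coronin gene, was lower (difference -0.85, 3090 in MYC-positive and 5575 in MYC-negative cells, adjusted p = 0.0031 in limma). Adcy9 (0.47), Glis2 (-0.31) and Vasn (-0.62) were not called. The call of Pam16 was lost without pair 1 and without pair 2, and that of Coro7 after median centring (0.093).

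Markers of other cell types were counted as well. Of 12 T and NK cell markers 1 was bright enough to test and was not called. Plasma cell markers summed to 26250 to 38956 in MYC-positive and 20289 to 35585 in MYC-negative cells. Of 7 tested 2 rose, Sdc1 (2.02) and Slpi (1.83), which is 28.6%, against 11.2% of all genes, and 0 fell. Fkbp11 (0.75), Prdm1 (0.54), Xbp1 (0.35), Jchain (0.02) and Mzb1 (0.00) were not called. B cell markers summed to 39354 to 48055 in MYC-positive and 48869 to 58878 in MYC-negative cells. GC B cell markers summed to 29138 to 37762 in MYC-positive and 34441 to 48495 in MYC-negative cells. The defining GC and B cell genes were thus well detected in both fractions, with Cd22 (-0.63), Pax5, Fas (-0.61) and Mybl1 lower in MYC-positive cells. Of 3 erythroid markers tested 0 were called in limma, with 1 (Tfrc, 0.57) at an unadjusted p under 0.05. Of 5 genes tested from a list of stromal and vessel markers 2 fell, Cr2 and Pecam1 (40%, against 11.5% of all genes). Cr2 gave 941 in MYC-positive and 2324 in MYC-negative cells, and Pecam1 43.5 in MYC-positive and 170 in MYC-negative cells. Which cells these signals came from was not tested.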

How the data were processed

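RNA of 4 MYC-positive and 4 MYC-negative samples was measured on 1 array each. The authors deposited linear signal intensity, made with MAS5 per the submitters' processing notes. The MAS5 version and the target of its scaling were not given in the sources used. Before log2, signals were raised to at least 1. Probe sets with 1 annotated gene and a mean log2 signal above the 40th percentile (a signal of 18.7) were kept, and the one with the highest mean stood for its gene. Another kept probe set had the opposite sign for Il2ra, Btrc, Cd44, Tcf4, Tcf12 and Adcy9, which were not called. limma 3.58.1 in R 4.3.3 fitted the fraction with the pair as a block (lmFit, eBayes with an intensity trend, 3 residual degrees of freedom), with Benjamini-Hochberg adjustment over 11754 genes and calls at an adjusted p under 0.05. All tests were two-sided, and the number of arrays limits the precision. The fit was tested on simulated data.

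Pairs come from the descriptions, not from the title numbers, which run 1 to 4 and 4 to 7 and were not used. Deviations from the fraction means correlated by 0.26, 0.17, 0.088 and 0.12 within pairs 1 to 4.

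Members and lists were chosen with earlier results of these data known. The rule named Tfap4 and Myc, the 3 genes ranked on either side of Tfap4, the 10 most and 5 least correlated, the 5 nearest by paired differences, the 5 largest called members of each list in each direction, all members of lists with up to 12 measured, and 5 chromosome neighbours on either side. Cell type markers are mostly given as counts and sums. Lyz1, Nfkb2, Tfrc, and the myeloid markers and helix-loop-helix genes that were not called were named after their values were seen. Gene and promoter tables are RefSeq GRCm38.p6.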

Additional observations from a re-analysis of the deposited data

Results flagged for a closer look

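Among the 86 genes named with values per array, 172 groups of 4 arrays were searched for an array far from the other 3 by Dixon's test, and 9 stood out. Chance flags about 1 in 20 groups, and Tfap4, Myc and Dleu2 had no such array. On the MYC-positive array of pair 4, Ednrb was low at 15.1, against 147 to 168 on the other MYC-positive arrays, Ahr was low at 291, against 545 to 568, and Dancr was high at 4256, against 2821 to 2896. On the MYC-positive array of pair 3, Mxd4 was low at 51.6, against 211 to 240, and Tcf3 was low at 357, against 672 to 755. On the MYC-negative array of pair 1, Dctd was low at 15.3, against 30.1 to 33.6 on the other MYC-negative arrays, Mlx was low at 695, against 753 to 760, Polr1b was low at 28.2, against 73.7 to 81.4, and Btrc was high at 209, against 124 to 128.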

How the results depend on the processing

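Tfap4 was called higher under all 9 other settings and without each pair, with a difference of 2.60 to 3.14 over the settings and 2.53 to 2.89 without 1 pair, and adjusted p-values of 2.6e-06 to 0.014. Without the pair block it was 2.70 (SE 0.35, adjusted p = 0.00068 in limma). The pairing moved the count of lower genes, which was 901 without the replicate block, and Mxd1, Pax5 and Ccl9 were not called without it. The rank of 51 became 28 with 16 added to each signal, 82 with no filter, 30 with mean signals above 100 and 5 among genes with a MYC-negative signal of at least 100, an alternative chosen after seeing the data, and ran from 48 to 76 without 1 pair. The helix-loop-helix counts of 4 higher and 3 lower became 8 and 1 after median centring, and ran from 2 to 6 and from 1 to 6 without 1 pair, lowest for higher calls without pair 2 and for lower calls without pair 1. Over all genes, 1319 higher and 1352 lower became 3204 and 546 after median centring, 1989 and 2649 with every probe set tested (22024 probe sets), and 736 and 771 without the intensity trend. Without 1 pair they ran from 403 to 1742 and from 352 to 2036. The lowest counts came without pair 1, and without pair 2 they were 455 and 425. Among single genes, averaging over probe sets turned Fbxw11 to -0.88 (adjusted p = 0.036) and Ndufa12 to -0.27 (adjusted p = 0.29 in limma), since dimmer probe sets of these genes went the other way. Of the other gene and setting combinations 1003 kept direction and side of the threshold, 67 lost a call and 21 gained one. Where no value shows it, the cause was not tested. Signals near 18.7 or below are limited by background.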
